A study of Homo sapiens with 6 samples.

Results

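The transcripts of 10 genes of the MYC, MAX and MXD network were examined in H929, the established myeloma cell line also called NCI-H929. Myeloma is a cancer of plasma cells, which secrete antibodies. The genes were MYC, MYCN, MAX, MXD1, MXD3, MXD4, MXI1, MNT, MLX and MGA, taken by symbol from the 62703 genes of the deposited tables, and each matched a single Ensembl gene ID. Paired-end RNA sequencing compared 3 libraries of cells given 1 µM Mi-2, a compound that inhibits the MALT1 protease, with 3 libraries of cells given the solvent DMSO. All were collected at 24 h from cells labelled as wild type, and no other genotype or agent was used. Whether the 3 libraries of a group are separate cultures is not stated in the labels. All p-values therefore measure the spread among these libraries alone, which may be technical.

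MYC is a transcription factor that binds DNA only as a pair with MAX, mostly at E-box sequences, and raises genes of growth, ribosome production and cell division. MXD1, MXI1, MXD3, MXD4 and MNT pair with the same MAX, bind the same sites and recruit the SIN3 corepressor, so MYC and these repressors compete for MAX and for DNA. MLX is a MAX-like partner shared by some of the MXD proteins and by the glucose-sensing factors MLXIP (MondoA) and MLXIPL (ChREBP). MGA pairs with MAX inside a Polycomb-type repressor complex. In myeloma, MYC is a known driver of growth.

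Library totals ran from 19980700 to 23756700 estimated counts, and the biological coefficient of variation was 14.2%. Markers of the labelled cell type were present: all but CD27 of 10 plasma cell markers reached 1 TPM (a share of all transcripts, corrected for length), with summed levels of 9485 to 13219 TPM in DMSO and 10333 to 13455 TPM in Mi-2. Within that sum, led by JCHAIN at 6248 TPM in DMSO and 6531 TPM in Mi-2, 4 of the 10 markers were called: SDC1 (log2 fold change -0.69, edgeR adjusted p = 0.018) and CD38 (-0.86, 0.0296) fell, and MZB1 (0.70, 0.00576) and IRF4 (0.35, 0.0441) rose. Markers of other cells moved in part with treatment: CD3E alone of 6 T and NK cell markers exceeded 1 TPM, with summed levels of 29.3 to 34.1 TPM in DMSO and 42.5 to 47.5 TPM in Mi-2, while CD3D and CD8A were at 0. The 9 fibroblast, endothelial and epithelial markers summed to 69.5 to 88.3 TPM in DMSO and 88.2 to 124.7 TPM in Mi-2, mostly PECAM1 and KRT18. Among them COL1A2 and CDH5 were at 0. CD3E (log2 fold change 0.50, edgeR adjusted p = 0.018), PECAM1 (0.35, 0.0488) and KRT18 (1.07, 0.00853) were called higher. The part of any of these markers in the results below was not tested. Myeloid markers summed to at most 0.81 TPM. Erythroid and platelet markers summed to 1.78 to 18.5 TPM in DMSO and 2.25 to 19.8 TPM in Mi-2, and none was called.

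Of the 10 genes, 9 had enough counts to be tested, all but MYCN. With Mi-2, MYC and MLX fell and MXD4 rose, so that 1 of the 9 was called higher, 2 were called lower and 6 were not called. The call was an adjusted p under 0.05 in edgeR's quasi-likelihood test over all 16082 tested genes, of which 11.0% were called, 5.02% higher and 6.03% lower. The ranges of CPM (counts scaled to a common library total by TMM) of the groups did not overlap for 5 of the 9 genes, which were MYC, MLX, MXD4, MXD1 and MXI1, against 32.3% of all tested genes. The fitted log2 fold change of Mi-2 over DMSO was positive for 6 and negative for 3, with a median of 0.12 against 0.00496 for all tested genes. Both values are differences on the log2 CPM scale.

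**Figure D1:**
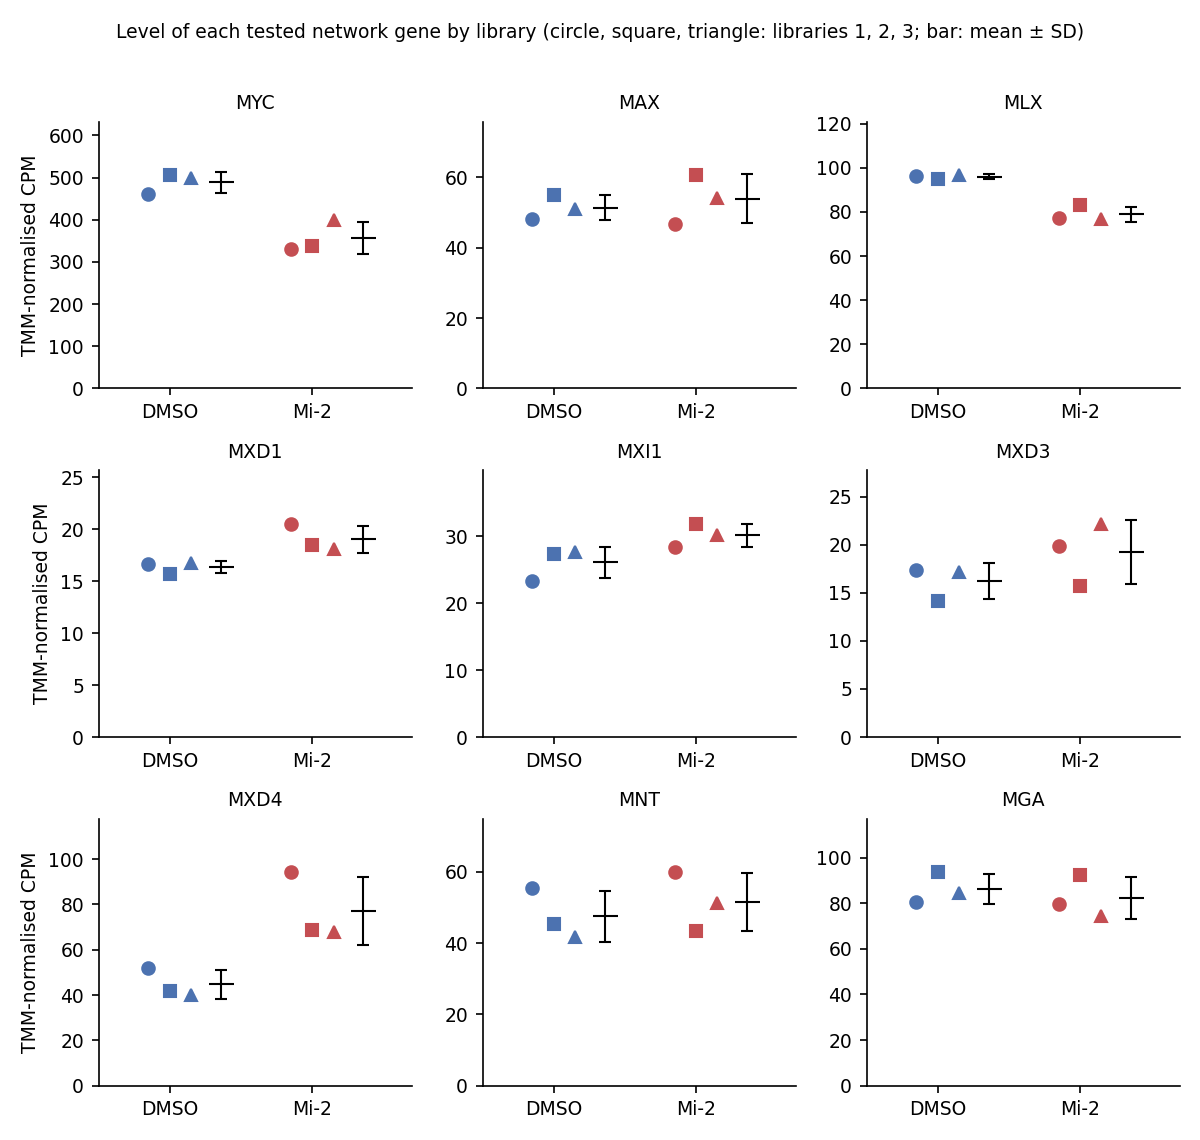
Level of each tested network gene in TMM-normalised CPM (vertical axes from 0) in the DMSO and Mi-2 libraries, with circle, square and triangle for libraries 1, 2 and 3 and a bar for the mean ± SD of 3. MYC and MLX sit lower in all 3 Mi-2 libraries and MXD4 sits higher, while the groups of MAX, MNT, MGA and MXD3 overlap.

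MYC, the activator of the network, fell 1.37-fold. Its levels in DMSO libraries 1, 2 and 3 were 461, 506 and 500 CPM, and in Mi-2 libraries 1, 2 and 3 they were 332, 338 and 399 CPM. Every Mi-2 library lay under every DMSO library, and Mi-2 library 3 came nearest to the controls. The fitted log2 fold change was -0.46 ± 0.10 (SE, n = 3 per group, edgeR adjusted p = 0.0196), and same-numbered libraries differed by -0.58 to -0.32 on the log2 scale. In bulk RNA, fewer cells with the transcript and less transcript per cell cannot be told apart. Leaving out any of 4 libraries ended the call, with adjusted p of 0.0793 and 0.0648 for libraries 2 and 3 of DMSO and of 0.0809 and 0.0624 for libraries 1 and 2 of Mi-2, and with log2 fold changes of -0.55 to -0.41 over the 6 libraries left out in turn. The gene lies on chromosome 8 from 127735434 to 127741434 (GRCh38, plus strand).

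MYCN, the paralogue best known from neuroblastoma, was near 0, with estimated counts of 4, 0 and 4 in DMSO against 1, 11 and 4 in Mi-2. These 24 counts in all were too few for the count test. On the TPM scale the levels were 0.16 ± 0.14 in DMSO and 0.14 ± 0.13 in Mi-2 (SD, n = 3), and the difference gave p = 1.0 in a two-sided exact permutation test, whose smallest possible value is 0.1. MYCL, the other paralogue and no member of the set above, was low too, at 2.37 ± 0.46 CPM in DMSO and 2.25 ± 0.24 CPM in Mi-2 (edgeR adjusted p = 0.881). MYC was thus the paralogue with the highest level in every library.

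MAX, the obligate partner, did not differ beyond its spread. Its levels were 48.3, 55.1 and 51.0 CPM in DMSO and 46.8, 60.7 and 54.2 CPM in Mi-2, with overlapping groups and a log2 fold change of 0.07 ± 0.11 (edgeR adjusted p = 0.739). MAX lies on chromosome 14 from 65006174 to 65102695.

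MLX, the MAX-like partner, fell 1.21-fold. It was even within groups, at 96.4, 94.8 and 96.7 CPM in DMSO and 77.4, 83.0 and 76.7 CPM in Mi-2, so the groups were separate by more than the range of either. The log2 fold change was -0.28 ± 0.08 (edgeR adjusted p = 0.0432). This call lay near the threshold: it was lost without any 1 of the 6 libraries (adjusted p of 0.106, 0.116 and 0.121 without libraries 1, 2 and 3 of DMSO, and of 0.155, 0.0528 and 0.0959 without those of Mi-2), with upper-quartile scaling (0.0517), with no filter on low counts (0.0661) and on TPM values (0.107 to 0.155). The change itself stayed between -0.32 and -0.26 with each library left out.

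MXD4, a MAX-binding repressor linked to differentiation and growth arrest, rose most, 1.72-fold. Its levels in DMSO libraries 1, 2 and 3 were 52.0, 41.9 and 40.1 CPM, and in the Mi-2 libraries 94.2, 68.9 and 67.8 CPM. Library 1 was the highest of its group in both treatments, and the lowest Mi-2 library exceeded the highest DMSO library. The log2 fold change was 0.79 ± 0.15 (edgeR adjusted p = 0.0115), and same-numbered libraries differed by 0.72 to 0.86. The call was lost without DMSO library 2 (adjusted p = 0.0532) or DMSO library 3 (0.0548), and on log2 TPM values, where limma gave 0.71 to 0.74 with adjusted p of 0.0597 to 0.177.

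The other MXD repressors did not pass the test. Each was higher in Mi-2 than in DMSO in all 3 same-numbered pairs, but the labels name no pairing. The share of all tested genes with that pattern was not counted. MXD1, which is induced when blood cells differentiate, had 16.7, 15.7 and 16.7 CPM in DMSO and 20.6, 18.5 and 18.1 CPM in Mi-2. These groups were separate, with a log2 fold change of 0.22 ± 0.11 (edgeR adjusted p = 0.237). MXI1, another MAX-binding repressor, had 23.4, 27.3 and 27.6 CPM against 28.4, 31.9 and 30.1 CPM, separate by a small gap, with 0.21 ± 0.10 (adjusted p = 0.236). MXD3, the member of the family found in dividing cells, had 17.4, 14.1 and 17.2 CPM against 19.9, 15.7 and 22.2 CPM, with overlapping groups and 0.25 ± 0.15 (adjusted p = 0.331). The values of MXD1, MXI1 and MXD3 thus ran the same way as those of MXD4 but were smaller.

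MNT, the most widely expressed of the repressors, had 55.4, 45.3 and 41.8 CPM in DMSO and 59.9, 43.5 and 51.2 CPM in Mi-2. The groups overlapped, and the log2 fold change was 0.12 ± 0.14 (edgeR adjusted p = 0.638). On TPM the sign turned, from 18.2 ± 2.56 in DMSO to 15.6 ± 2.50 in Mi-2 (SD, n = 3, limma log2 difference -0.21, adjusted p = 0.472), also not called. MGA, the largest protein of the set, had 80.4, 93.5 and 84.5 CPM against 79.7, 92.3 and 74.6 CPM, overlapping, with -0.07 ± 0.10 (adjusted p = 0.718).

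**Figure D2:**
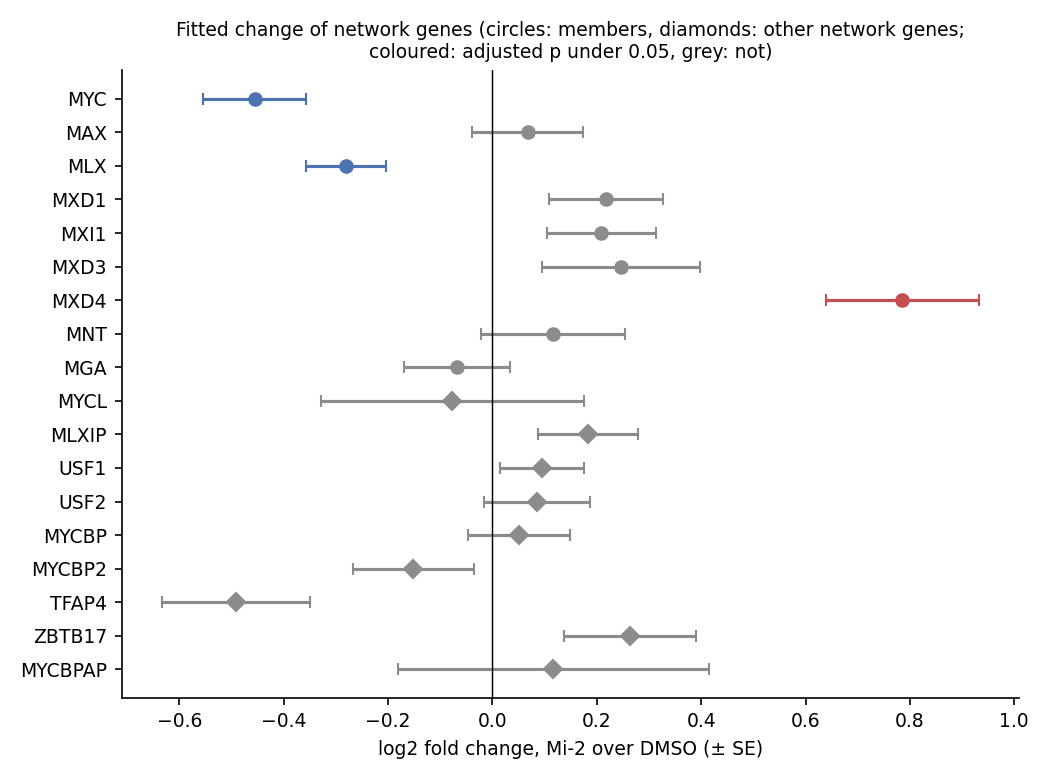
Fitted log2 fold change of Mi-2 over DMSO (horizontal axis, ± SE, 3 libraries per group) of the 9 tested members (circles) and of 9 further network genes (diamonds), coloured where the edgeR adjusted p was under 0.05. MXD4 stands furthest to the right at 0.79, MYC and MLX are the coloured points left of 0, and no diamond is coloured.

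Promoter sequences are shown for the members that hold the canonical E-box, since that is the site for which these proteins compete. RefSeq (GRCh38.p14) gave promoter windows of 300 bases, from 250 before to 50 after each start, for 9 of the 10 members, 14 windows in all. The E-box CACGTG, which reads the same on both strands, stood in 3 of the 14, those of MXD4, MLX and MNT, and in 7.26% of all 35116 windows. The wider form CACGNG, searched on both strands and overlapping the first, stood in 9 of the 14 and in 30.5% of all windows. Among the windows of all tested genes the shares were higher, 9.35% for CACGTG and 39.6% for CACGNG. The stretches below run 5′ to 3′ on the gene's strand, stop before the gene as GENCODE annotates it, and carry the E-box in capitals. They lie at chr4:2262295-2262359 (minus strand) for MXD4, chr17:42566850-42567067 (plus strand) for MLX and chr17:2401119-2401310 (minus strand) for MNT. The E-box began 238 bases before the RefSeq start in MXD4, 50 in MLX and 193 in MNT.
MXD4: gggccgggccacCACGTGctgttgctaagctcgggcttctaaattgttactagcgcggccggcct
MLX: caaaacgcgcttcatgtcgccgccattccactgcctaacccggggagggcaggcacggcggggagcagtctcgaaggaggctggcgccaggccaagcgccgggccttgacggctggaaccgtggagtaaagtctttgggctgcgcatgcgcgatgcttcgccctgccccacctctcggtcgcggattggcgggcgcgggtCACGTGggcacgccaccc
MNT: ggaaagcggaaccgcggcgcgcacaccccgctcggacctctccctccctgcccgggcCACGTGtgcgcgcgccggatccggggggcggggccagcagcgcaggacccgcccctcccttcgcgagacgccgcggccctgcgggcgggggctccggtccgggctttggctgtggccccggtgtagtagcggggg
The same letters thus stood before a gene that rose, a gene that fell and a gene that was not called. A match describes the letters only and says nothing of binding in these cells.

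Levels between members were compared on TPM, which is per length. In DMSO, MYC was highest at 331 ± 19.4 TPM (SD, n = 3), above MLX at 62.4 ± 2.60 TPM and MAX at 50.7 ± 11.9 TPM, whose ranges overlapped. MXD3 (20.6 ± 2.34 TPM), MNT (18.2 ± 2.56), MXI1 (17.0 ± 3.01) and MXD4 (16.8 ± 3.46) followed, each with a range that overlapped the next. MGA (11.2 ± 1.18 TPM), MXD1 (3.58 ± 0.05) and MYCN came last, each apart from its neighbours. In Mi-2, MXD4 moved up to 28.0 ± 4.90 TPM, overlapping MXD3 at 28.3 ± 4.44 TPM, and both were then above MXI1 at 20.4 ± 0.91 TPM and MNT at 15.6 ± 2.50 TPM. MYC remained highest, at 241 ± 21.3 TPM.

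The summed level of the 5 MAX-binding repressors MXD1, MXI1, MXD3, MXD4 and MNT was 80.9, 75.9 and 71.6 TPM in DMSO and 105, 87.4 and 97.5 TPM in Mi-2. MYC stood at 3.87, 4.63 and 4.58 times this sum in DMSO and at 2.21, 2.59 and 2.72 times it in Mi-2. The groups did not overlap in either quantity, and the mean ratio went from 4.36 ± 0.43 to 2.51 ± 0.27 (SD, n = 3), which is 1.74-fold lower. Of the repressor sum, MXD4 made up 21.9 ± 3.22% in DMSO and 28.8 ± 3.04% in Mi-2. The ratio of MYC to MXD4 alone went from 20.4 ± 4.55 to 8.82 ± 1.81. The ratio of MYC to MAX went from 6.79 ± 1.77 to 4.80 ± 0.67, and MAX itself ranged from 37.1 to 59.5 TPM within DMSO. These ratios are descriptions of transcript levels, given without a test.

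**Figure D3:**
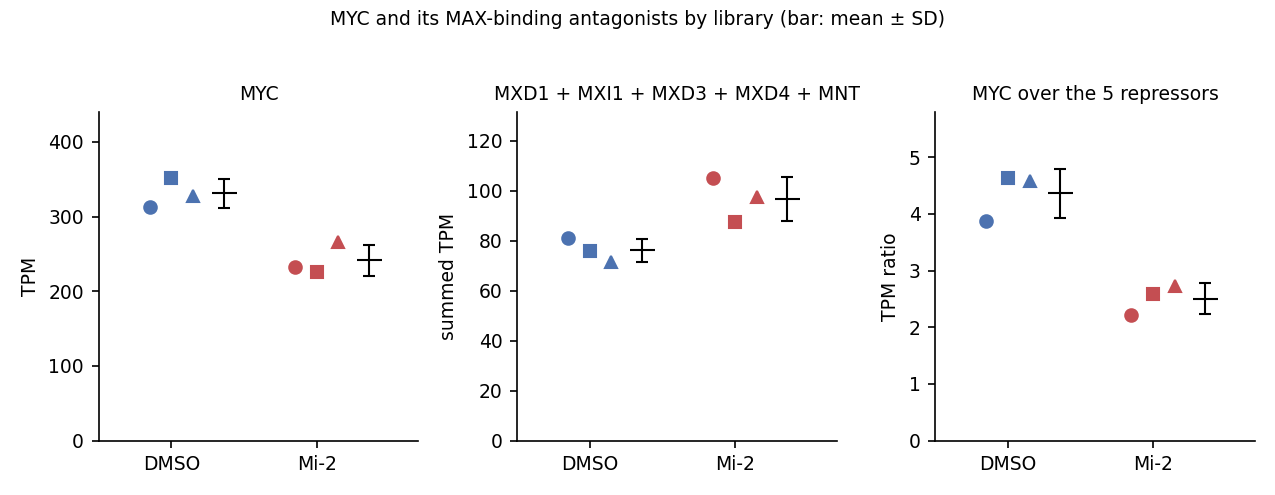
MYC in TPM, the summed TPM of the 5 MAX-binding repressors, and the ratio of the first to the second (vertical axes from 0), by library (circle, square and triangle for libraries 1, 2 and 3) with mean ± SD of 3. All 3 ratios in Mi-2, 2.21 to 2.72, lie under all 3 in DMSO, 3.87 to 4.63.

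Estimated counts and TPM differ by a length that the estimate assigned to each gene in each library, and their ratio gives that implied length up to a constant per library. It is not a measurement of isoforms. Taking DMSO library 1 as 1, the implied length of MNT was 1.00, 0.89 and 0.93 in DMSO and 1.20, 1.17 and 1.16 in Mi-2, with no overlap. The mean in Mi-2 was 1.26 times that in DMSO, a shift that 1.48% of 10366 genes with adequate counts exceeded, and it accompanied the opposite signs of MNT on counts and on TPM. For MXD3 the implied length was 1.00, 1.03 and 0.93 in DMSO and 0.89, 0.82 and 0.84 in Mi-2, or 0.86 times, exceeded by 4.71% of genes. On TPM, MXD3 therefore had separate groups, at 17.9 to 22.1 in DMSO and 23.7 to 32.6 in Mi-2, which its counts did not. MYC had the same implied length in both groups (ratio 0.997). In MAX a single library, DMSO library 3, stood apart at 1.47 against 1.00 to 1.21 in the other libraries, and gave its lowest TPM. No test was made of these lengths.

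**Figure D4:**
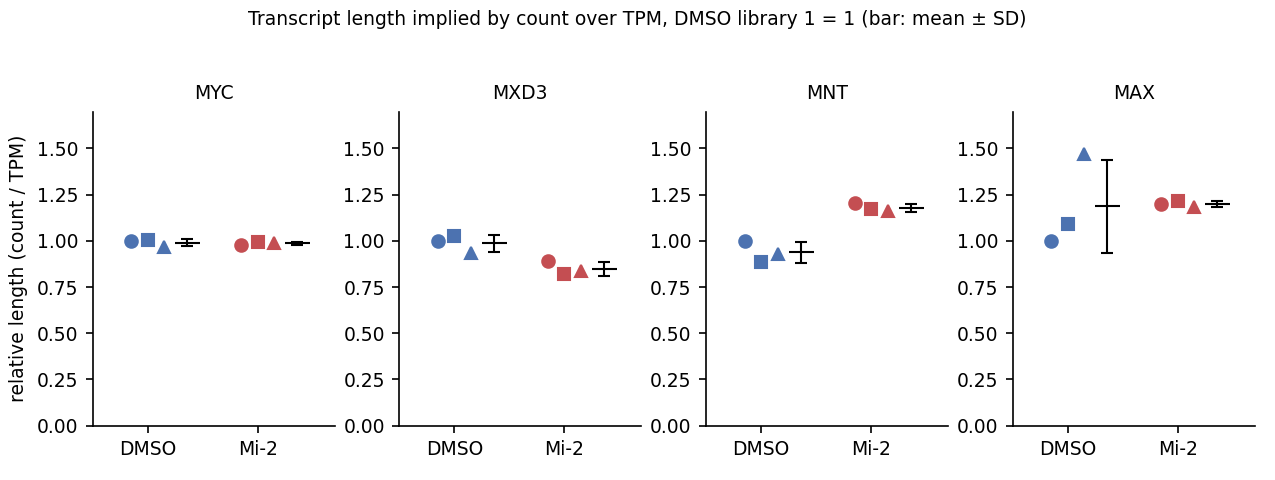
Transcript length implied by estimated count over TPM, relative to DMSO library 1 (vertical axes from 0), for MYC, MXD3, MNT and MAX by library, with mean ± SD of 3. MNT lies higher in all 3 Mi-2 libraries (1.16 to 1.20) than in DMSO (0.89 to 1.00), MXD3 lies lower, and MAX has a single high DMSO library at 1.47.

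Of the 9 tested network genes outside the set, 0 were called by edgeR, against 11.0% of all genes, and 1 passed at an unadjusted p under 0.05, with DESeq2 and with the library number as a block, while limma-voom called 0. MLXIP, the MLX partner that senses glucose phosphates, had 125 ± 12.6 CPM in DMSO and 142 ± 8.09 CPM in Mi-2 (log2 fold change 0.18 ± 0.10, adjusted p = 0.253). MLXIPL, its liver and fat counterpart, had about 0.2 CPM in both groups (0.217 and 0.199) and was not tested. ZBTB17, which recruits MYC to genes that it represses, had separate groups at 22.7 and 27.3 CPM (0.26 ± 0.13, adjusted p = 0.217). That 1 gene was TFAP4, itself a known MYC target, named here after its values were seen, with -0.49 ± 0.14 (adjusted p = 0.0536).

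Among 17 cofactors that work with MYC protein, 5 fell (29.4%, against 6.03% of all tested genes) and 1 rose (5.88%, against 5.02%). With the library number as a block 7 fell and 1 rose, when 23.8% of all genes were called either way. On log2 TPM plus 1 the numbers were 1 and 0. RUVBL1 and RUVBL2, the paired helicases of chromatin remodellers, went from 115 to 80.7 CPM (-0.52 ± 0.10, edgeR adjusted p = 0.0138) and from 161 to 119 CPM (-0.43 ± 0.12, adjusted p = 0.0436). WDR5, which anchors MYC to chromatin, went from 73.8 to 52.6 CPM (-0.49 ± 0.09, adjusted p = 0.0124), and the acetyltransferase gene KAT2A from 108 to 78.3 CPM (-0.47 ± 0.10, adjusted p = 0.0202). CDK9, the kinase that releases paused RNA polymerase, rose from 62.6 to 81.2 CPM (0.38 ± 0.10, adjusted p = 0.0452). Each of these calls was lost without library 2 of DMSO. RUVBL1 (adjusted p of up to 0.0644), RUVBL2 (0.143) and CDK9 (0.171) also lost theirs without library 3 of DMSO, and all but CDK9 and RUVBL2 were otherwise lost only without library 1 of Mi-2, with up to 0.054 for WDR5 and 0.0855 for KAT2A. RUVBL2 was lost too without Mi-2 library 1 or 2, and CDK9 without Mi-2 library 1 or 3.

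Of 24 genes that set the stability of MYC protein, 5 fell (20.8%, against 6.03% of all tested genes) and 1 rose (4.17%, against 5.02%). With the library number as a block 8 fell and 2 rose, when 23.8% of all genes were called either way. On log2 TPM plus 1 the numbers were 1 and 0. CIP2A, which shields MYC from the phosphatase PP2A, went from 51.3, 51.9 and 53.7 CPM in DMSO to 25.1, 29.4 and 30.7 CPM in Mi-2. That is a log2 fold change of -0.88 ± 0.10 (edgeR adjusted p = 0.00209), and it stayed called with each library left out. SET, another inhibitor of PP2A, went from 373 to 281 CPM (-0.41 ± 0.11, adjusted p = 0.0406), and the deubiquitinase gene USP37 from 38.6 to 28.6 CPM (-0.43 ± 0.08, adjusted p = 0.0135). SKP2, a ubiquitin ligase subunit that also acts as a MYC cofactor, went from 92.6 to 72.7 CPM (-0.35 ± 0.08, adjusted p = 0.0247). FBXO32, an F-box gene best known from muscle wasting, rose from 5.55 to 10.1 CPM (0.86 ± 0.21, adjusted p = 0.0314), with Mi-2 library 1 highest at 13.5 CPM. FBXW7, the main ligase for phosphorylated MYC, had 91.0 and 93.1 CPM (adjusted p = 0.881). The calls of SET (adjusted p of up to 0.144), USP37 (0.0619), SKP2 (0.0901) and FBXO32 (0.103) were each lost without library 2 of DMSO and without library 1 of Mi-2. SET was also lost without the third library of either group, FBXO32 without DMSO library 1 or 3, and SKP2 with any of the 6 left out.

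Of 10 tested genes that feed into or neighbour the MYC gene, MAX among them, IRF4 alone was called. That share of 10.0% was like the 11.0% of all tested genes. With the library number as a block 1 gene was also called lower, when 2035 of all 16082 genes were. IRF4, the myeloma transcription factor that acts with MYC, rose from 1726 ± 140 to 2192 ± 26.6 CPM (log2 fold change 0.35 ± 0.09, edgeR adjusted p = 0.0441), opposite to MYC. That call was lost without any library but the first of DMSO (adjusted p of up to 0.165). PVT1, the long non-coding RNA beside MYC, had 17.4, 16.8 and 17.3 CPM in DMSO and 14.8, 13.3 and 16.8 CPM in Mi-2 (-0.20 ± 0.12, adjusted p = 0.329).

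Of 18 genes of the SIN3 complex 2 were called, a share like that of all tested genes (11.0%). ARID4A rose (0.47 ± 0.12, edgeR adjusted p = 0.0337) and RBBP7 fell (-0.32 ± 0.09, adjusted p = 0.0446). Both calls were lost without any library but the third of Mi-2, with adjusted p of up to 0.137 and 0.171. With the library number as a block 1 SIN3 gene rose and 2 fell, when 23.8% of all genes were called either way. SIN3A, the scaffold that MXD proteins contact, had 87.7 and 85.7 CPM (adjusted p = 0.825). Of 13 genes of the Polycomb complex that holds MGA, 11 had negative values, against 49.3% of all tested genes. Their list had a median of -0.22, against 0.00496 for all tested genes. Of the 13, 3 fell (23.1%, against 6.03% of all tested genes). They were TFDP1, the partner of E2F factors (-0.62 ± 0.09, adjusted p = 0.00589), CBX3, a heterochromatin protein (-0.50 ± 0.09, adjusted p = 0.00924), and WDR5. PCGF6 (-0.48 ± 0.15, adjusted p = 0.0764), L3MBTL2 (-0.22 ± 0.08, adjusted p = 0.0962) and E2F6 (-0.17 ± 0.12, adjusted p = 0.414), the subunits most specific to this complex, did not pass. With the library number as a block 7 of the 13 fell, PCGF6 and L3MBTL2 among them, and 1 rose. In that fit 23.8% of all genes were called either way.

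Germline and meiotic genes, which this Polycomb complex is known to keep silent, were mostly near 0, and 6 of 15 could be tested. MEI1, a gene of meiotic chromosome synapsis, rose from 19.6, 15.7 and 15.3 CPM in DMSO to 44.2, 37.4 and 37.9 CPM in Mi-2. The groups lay far apart, with a log2 fold change of 1.24 ± 0.13 (edgeR adjusted p = 0.00201), and it stayed called with each library left out. It was the single call among the 6 (16.7%, against 5.02% of all tested genes called higher). The median of the 6 was 0.14. With the library number as a block 1 of the others was called lower, when 23.8% of all genes were called either way. MEI1 was not silent in DMSO, with means of 16.9 CPM and 26.6 TPM there. Those of MYC in DMSO were 489 CPM and 331 TPM, so the estimate assigned MEI1 a shorter length than MYC. What that length reflects was not tested.

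All 36 genes of a list of genes that MYC is known to induce had negative values and 16 fell, with a median log2 fold change of -0.35. Among all tested genes, 6.03% fell and 49.3% had negative values. The list was chosen with earlier results of these data known, so its counts are a description and no independent test. With the library number as a block, 32 of the 36 fell, as did 2035 of all 16082 tested genes. CDC25A, a phosphatase that starts S phase, went from 55.0, 69.0 and 65.4 CPM in DMSO to 20.1, 32.2 and 35.6 CPM in Mi-2 (-1.11 ± 0.18, edgeR adjusted p = 0.00783). The mitochondrial chaperone gene HSPD1 went from 1045 to 626 CPM (-0.74 ± 0.14, adjusted p = 0.0136), and the HSP90 co-chaperone gene FKBP4 from 201 to 129 CPM (-0.64 ± 0.11, adjusted p = 0.00783). NOP56, which guides modification of ribosomal RNA, went from 360 to 241 CPM (-0.58 ± 0.13, adjusted p = 0.0226). Leaving out libraries 1, 2 and 3 of DMSO in turn gave 11, 2 and 6 genes called lower, and leaving out those of Mi-2 gave 3, 17 and 11. The calls of CDC25A and FKBP4 held each time, that of HSPD1 was lost without the second DMSO library (adjusted p = 0.0616), and that of NOP56 without it or without Mi-2 library 1 or 3 (up to 0.0905). HSPD1, SET and CBX3 are known to have processed copies in the genome, among which the estimate may divide reads, and how far it did was not tested.

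A list of DNA replication genes fell beside the MYC-induced genes, and by more, with a median of -0.91 against 0.00496 for all tested genes. On this list 18 of 20 were called lower (90.0%, against 6.03% of all tested genes). MCM10 (-1.17 ± 0.15, edgeR adjusted p = 0.0035), GINS1 (-1.16 ± 0.15, 0.0035), CDC45 (-1.14 ± 0.17, 0.00507) and MCM2 (-1.10 ± 0.17, 0.00634), parts of the machinery that opens and copies DNA, led it. With the library number as a block all 20 were called lower, as were 2035 of all 16082 tested genes. A change in the share of dividing cells cannot be told apart from a change within cells here. The part of such a change in the fall of MYC and its targets was not tested.

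Genes that MYC is known to repress were less uniform, with a median of 0.15. Of 17 tested, 2 were called higher (11.8%, against 5.02% of all tested genes) and 0 lower (against 6.03%). With the library number as a block 5 were higher and 1 lower, when 1791 and 2035 of all 16082 genes were. At an unadjusted p under 0.05, 5 were higher and 0 lower, and DESeq2 and limma-voom gave 2 and 0. BTG2, an antiproliferative gene, rose from 398 to 539 CPM (0.43 ± 0.09, edgeR adjusted p = 0.0154), a call lost without library 2 or 3 of DMSO or the first of Mi-2 (adjusted p of up to 0.0642). The cell cycle inhibitor genes went opposite ways without passing, CDKN1B from 62.8 to 76.0 CPM (0.27 ± 0.11, adjusted p = 0.135) and CDKN1A from 155 to 117 CPM (-0.41 ± 0.21, adjusted p = 0.243), and both were called with the library number as a block.

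TXNIP, an inhibitor of glucose uptake that MLX raises with MLXIP and that MYC opposes, rose. It had 309, 313 and 288 CPM in DMSO and 448, 511 and 430 CPM in Mi-2, with a log2 fold change of 0.61 ± 0.09 (edgeR adjusted p = 0.00595) that stayed called with each library left out. Of the 8 tested genes of MLX and its partners, 2 rose (25.0%, against 5.02% of all tested genes) and 2 fell (25.0%, against 6.03%). With the library number as a block 2 rose and 3 fell, when 23.8% of all genes were called either way. ARRDC3, a relative of TXNIP, rose from 51.1 to 82.6 CPM (0.69 ± 0.14, adjusted p = 0.0135). KLF11, a repressor of transcription (-0.61 ± 0.14, adjusted p = 0.022), and PFKFB3, an activator of glycolysis (-0.51 ± 0.12, adjusted p = 0.0266), fell. ARRDC4, the other established target of this pathway, had 10.1 and 9.59 CPM (-0.07 ± 0.13, adjusted p = 0.788). The calls of ARRDC3, KLF11 and PFKFB3 were lost without the third library of DMSO, with adjusted p of up to 0.062, 0.0901 and 0.0976 over the libraries left out. ARRDC3 and PFKFB3 were also lost without the second of DMSO, KLF11 without the first of DMSO, and KLF11 and PFKFB3 without the first of Mi-2.

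The TXNIP promoter is shown because it holds several E-box-like sites close together, the arrangement read by MLX and its partners. In RefSeq (GRCh38.p14) its stretch at chr1:145996601-145996829 (minus strand) held no CACGTG and 4 matches to CACGNG on either strand, in capitals below. A pair of these was separated by 5 bases. Another TXNIP window, with its upstream part at chr1:145995745-145995994, held no match to either form. The window of ARRDC4, which was not called, held 1 CACGTG and 3 matches to CACGNG, that site among them. Whether such sites bear on the level of either gene was not tested.
TXNIP: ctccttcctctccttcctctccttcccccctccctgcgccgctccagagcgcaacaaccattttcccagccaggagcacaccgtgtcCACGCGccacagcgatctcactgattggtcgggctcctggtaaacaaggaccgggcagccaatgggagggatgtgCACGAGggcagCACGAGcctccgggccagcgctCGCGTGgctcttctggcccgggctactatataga
Across lists, CACGTG stood in 15 of the 37 promoter windows of the MYC-induced genes (40.5%), 5 of 15 of the MLX targets (33.3%), 7 of 23 of the germline genes (30.4%) and 5 of 22 of the MYC-repressed genes (22.7%), against 9.35% of the windows of all tested genes, 11.8% of those of genes called lower and 8.22% of those of genes called higher. The other lists ranged from 0 of 9 windows, for network genes outside the set and for MYC gene inputs, to 15.6% for MYC protein turnover, with 8.33% (2 of 24) for the DNA replication genes.

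**Figure D5:**
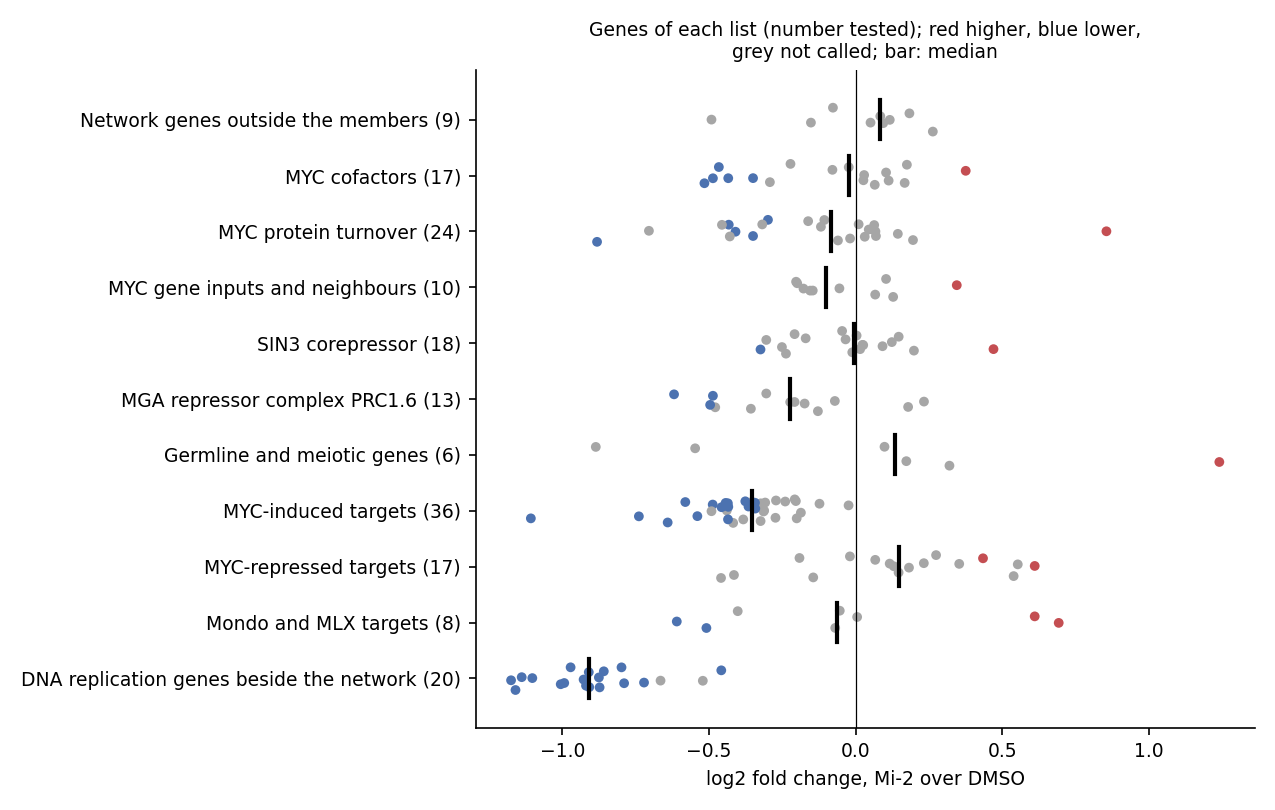
Fitted log2 fold change of Mi-2 over DMSO (horizontal axis) for each tested gene of the 11 lists around the network (number tested in parentheses), red where called higher, blue where called lower, grey where not called, with a bar for the list's median. The 36 MYC-induced genes all lie left of 0 with a median of -0.35, the replication genes lie further left at -0.91, and the other lists straddle 0.

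The genes whose centred log2 CPM over the 6 libraries lay nearest to that of MYC were NEMP1 (root mean square difference 0.0351), SNAPC4 (0.0415), CEP250 (0.0425) and MRPL37 (0.0449). They are genes of the nuclear envelope, snRNA transcription, the centrosome and the mitochondrial ribosome, with log2 fold changes of -0.52, -0.47, -0.38 and -0.46. Nearest to MXD4 were CTSD (0.0501), ARSA (0.0669), MAP1LC3B (0.0675) and WFS1 (0.0765), with log2 fold changes of 0.79, 0.68, 0.73 and 0.74. CTSD and ARSA encode lysosomal enzymes, MAP1LC3B a protein of autophagosome membranes and WFS1 a protein of the endoplasmic reticulum. All 6 libraries entered this measure, so it includes the difference between the groups.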

How the data were processed

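Total RNA of H929 cells was sequenced as paired ends, per the labels' protocols. Tools named without roles in the submitters' processing notes are RSEM 1.3.3, HISAT2 2.1.0, StringTie 2.1.0 and fastp 0.19.5, with the build GRCh38.p13. The sources used here do not give RNA selection or strand, so antisense or overlapping genes cannot be separated. The authors deposited estimated counts per gene, not scaled between libraries, and TPM, which are scaled to a constant total and corrected for length.

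Groups came from the labels. Estimated counts were rounded, filtered with filterByExpr (minimum 10, total 15), scaled by TMM and tested with edgeR 4.0.16 (R 4.3.3), quasi-likelihood, Benjamini-Hochberg over 16082 genes, threshold 0.05. SE was computed from the F statistic. Libraries within a group differed by a chi-square of 15.04 to 21.15 per degree of freedom and were kept apart. Same-numbered libraries of the 2 groups deviated together (correlations of deviations 0.711, 0.141 and 0.427 for numbers 1, 2 and 3). Unlike-numbered libraries gave -0.514 to 0.103, which number 2 barely exceeded. The labels name no pairing, and the evidence of it from the data rests mainly on numbers 1 and 3. The main fit has no pairing, and the fit with the library number as a block is an alternative, printed where it changes a call or a count. The main edgeR fit was tested on simulated data.

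Members, lists and the naming rule were chosen with earlier results of these data known. The rule named all members, up to 4 called genes per list and direction, genes tied to a member by role, and the 4 genes nearest in pattern to MYC and MXD4. Values of a gene tied to a member by role are not reported here. The lists, of textbook knowledge, were network genes outside the members, MYC cofactors, MYC protein turnover, MYC gene inputs, SIN3, the MGA complex, germline genes, MYC-induced and MYC-repressed genes, MLX targets and DNA replication. Symbols were matched for 62625 IDs, and gene positions are GENCODE release 29 on GRCh38. Promoters are RefSeq GRCh38.p14. Alternatives were DESeq2 1.42.0, limma-voom (limma 3.58.1), upper-quartile or RLE scaling, no filter, 1 CPM in 3 libraries, removal of immunoglobulin and the 20 highest genes, limma on log2(TPM + 1) or (TPM + 0.1) with mean TPM of at least 1, TPM + 1 unfiltered, the replicate block, and each library left out.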

Additional observations from a re-analysis of the deposited data

How the results depend on the processing

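Leaving out the libraries in turn gave from 0 to 1 of the 9 tested members higher, from 0 to 1 lower (1 without DMSO library 1 or Mi-2 library 3), from 2 to 17 MYC-induced genes lower and log2 fold changes of MYC from -0.55 to -0.41. On log2 TPM plus 1, plus 0.1 and plus 1 without filter, 0 members were higher each time, 1, 1 and 0 were lower, and 7, 9 and 0 MYC-induced genes were lower. Plus 1 without filter called 0 of 31463 genes with limma and left MYC at -0.46 (adjusted p = 0.114). With upper-quartile scaling and with no filter on low counts 1 member was lower, and no filter gave 26 MYC-induced genes. The replicate block, pairing libraries by number, gave 32, left MYC at -0.46 (adjusted p = 0.0011), called CDKN1A, CDKN1B, PCGF6, L3MBTL2 and TFAP4 and changed no other call of a gene named above. MNT turned to -0.21 on TPM plus 1 (filtered or not) and -0.22 on plus 0.1. Values of uncalled genes crossed 0 with single libraries left out, over -0.0275 to 0.16 for MAX, -0.0049 to 0.24 for MNT, -0.0504 to 0.11 for FBXW7, -0.23 to 0.00996 for MYCL and -0.0682 to 0.00264 for SIN3A. The cause of these shifts was not tested. Over all results and alternatives other than left-out libraries, 499 values kept direction and call, 70 lost the call, 7 gained it, 13 counts moved and 3 reversed. The precision is limited by 3 libraries per group and a 14.2% coefficient of variation.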
